A study of Mus musculus with 84 samples.

Results

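The 10 genes described here encode proteins that act downstream of the serotonin 2A receptor: the G protein alpha subunits Gnaq and Gna11, the phospholipases Plcb1 and Plcb4, the calcium channels Itpr1 and Itpr2, the kinases Prkca and Prkcb, and the arrestins Arrb1 and Arrb2. They were chosen by name from the signalling pathway, with earlier results of these data known. Each symbol was matched to 1 Ensembl gene ID, and all 10 were among the 17941 genes tested, out of 55401 gene IDs in the count tables. RNA had been sequenced from NeuN-positive nuclei, which are nuclei sorted with an antibody to a neuronal nuclear protein, of the frontal cortex of 129S6/SvEvTac mice aged 12 weeks. One group received vehicle, and the other 3 were sampled 24 h, 48 h or 7 days after an injection of the psychedelic 2,5-dimethoxy-4-iodoamphetamine (DOI), an agonist of the serotonin 2A receptor. Each group held 4 mice with RNA data here, each with 2 libraries, while the design text names 6 mice a group. The labels name no altered gene, and all mice shared the strain and the age. The chromatin samples of the series were not analysed here.

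In the textbook pathway, an agonist-bound receptor activates G alpha q or its close relative G alpha 11, which switch on phospholipase C beta. That enzyme splits a membrane phosphoinositide into inositol trisphosphate, which opens calcium channels of the endoplasmic reticulum, and diacylglycerol, which together with calcium activates conventional protein kinase C. Receptor kinases then mark the active receptor, and beta-arrestins bind it, uncouple it from the G protein and carry it into the cell. In the cortex the serotonin 2A receptor is best known from pyramidal neurons.

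Vehicle mice had 9151680 to 11517452 counts each, above the 24 h mice (6441396 to 8090559) and the 48 h mice (5834248 to 7344355), while the 7 day mice spanned 6972577 to 12354785. A level of 3 counts was worth 0.254 to 0.502 CPM (counts scaled to a common library total after TMM), and this floor covers counting error only. A feature annotated as an 18S ribosomal RNA pseudogene took 72.3 to 110 CPM in vehicle mice, 3258 to 15064 at 24 h and 5107 to 16124 at 48 h. At 7 days it took 87.3, 6171, 63.4 and 4622 CPM in mice 1 to 4, so mice 2 and 4 stood apart from mice 1 and 3. Summed markers of excitatory neurons (5 genes) were 413 to 480 CPM in vehicle mice, 791 to 2321 at 24 h, 1336 to 2074 at 48 h and 413, 1306, 394 and 1144 in the 7 day mice. Within that list Camk2a went from 151 to 222 CPM in vehicle mice to 622 to 2126 at 24 h, while Slc17a7 was 129 to 171 CPM in vehicle mice and 57.7 to 110 at 24 h. Inhibitory markers (5 genes) summed to 815 to 1115 CPM in vehicle mice, 495 to 729 in the 24 h mice, 472 to 968 in the 48 h mice and 649 to 945 in the 7 day mice. Gad1 and Gad2 made up most of that sum, while Slc32a1 was at 3.54 to 4.63 CPM in vehicle mice and 6.86 to 10.0 at 24 h. Striatal markers (9 genes) summed to 379 to 465 CPM in vehicle mice, 301 to 364 at 24 h, 382 to 739 at 48 h and 723, 2079, 459 and 1549 in the 7 day mice. The neuronal list (5 genes) was at 5538 to 5794 CPM in vehicle mice and 3762 to 6002 CPM over the 24 h and 48 h mice. Snap25 carried most of it, at 3717 to 4334 CPM in vehicle mice and 2278 to 3547 at 24 h, while Rbfox3, which encodes the protein NeuN used for the sort, was at 46.3 to 68.1 CPM in vehicle mice and 88.4 to 115 at 24 h. Astrocyte markers (6 genes) reached 622 to 690 CPM in vehicle mice and 604 to 1099 CPM over the 24 h and 48 h mice, mostly from Slc1a2, while Gfap was at or under 1.48 CPM in vehicle mice. No marker was at 0 counts over all mice, and the part of these differences in the results below was not tested. In bulk nuclei, fewer cells of a type and less RNA per cell cannot be told apart.

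Prkcb, the most abundant of the 10 genes, fell at 24 h and 48 h, and Arrb1 rose at 48 h. No other member passed the threshold, an adjusted p of 0.05 over all genes tested, at any time. The 3 comparisons with vehicle share the same 4 vehicle mice. At 24 h 1 of 10 members passed it, where 24.2% of all genes did. At 48 h 2 of 10 did, where 30.1% of all genes did, and at 7 days none did, where the share of all genes was 0%. When the 4 groups were tested together 1 member passed, Prkcb with an adjusted p of 0.0451, beside 18.8% of all genes. That call was lost with other scaling, with no filter, with either library alone, with thinned counts, with the mouse number as a block, with either covariate (the 18S or the mitochondrial share) and in 11 of the 16 fits that left out 1 mouse. These shares are at or below the background, so the counts say nothing particular about the members. The sizes of the differences were modest as well: the median absolute log2 fold change of the members was 0.23 at 24 h, 0.39 at 48 h and 0.19 at 7 days, against 0.56, 0.61 and 0.34 over all genes tested. Signed, the members' median was 0.18, 0.23 and 0.11, against 0.03, 0.02 and 0.02 over all genes.

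**Figure D1:**
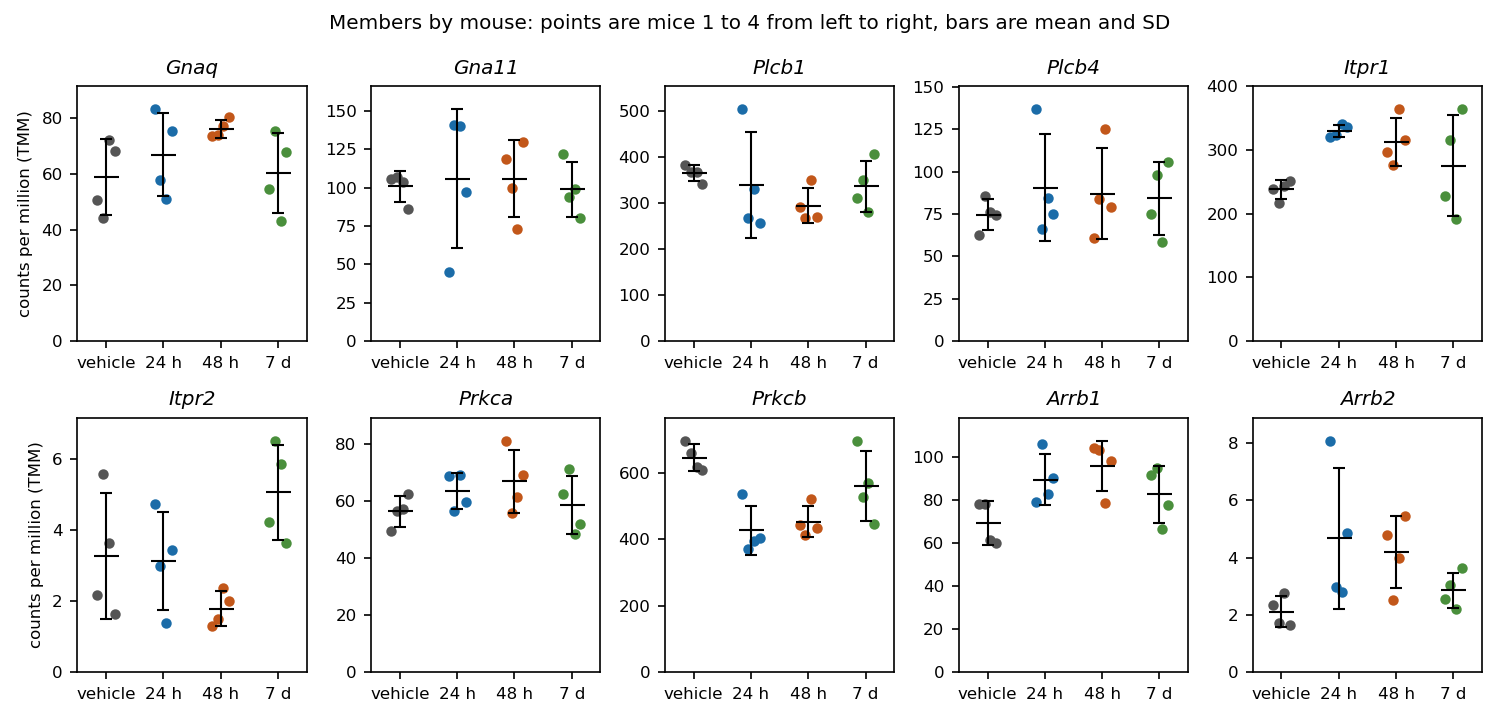
CPM of the 10 genes (vertical axes, each from 0) in the 4 mice of each group, with the mean and SD as bars. Prkcb shows no vehicle mouse under 607 CPM and no 24 h or 48 h mouse above 535, whereas the groups overlap for Gna11, Plcb4 and Prkca.

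Counting mice without a model gave a similar picture. At 24 h the 4 treated and 4 vehicle mice did not overlap for 4 members, with Itpr1, Arrb1 and Arrb2 higher and Prkcb lower, where 35.7% of all genes did not overlap. At 48 h they did not overlap for Gnaq, Itpr1 and Arrb1 (higher) and Prkcb (lower), beside 38.1% of all genes. At 7 days every member overlapped, beside 5.85% of all genes without overlap. The number of members at an unadjusted p under 0.05 was 4 at 24 h, 4 at 48 h and 0 at 7 days, against 38.4%, 42.9% and 16.8% of all genes, and DESeq2 also called 0 members at 7 days.

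Levels between genes were compared per kilobase of exon. In vehicle mice Prkcb came first with 84.3 ± 5.30 CPM per kb (SD, n = 4), followed by Plcb1 with 32.9 ± 1.52 and Gna11 with 24.6 ± 2.45. Itpr1 had 13.0 ± 0.809 CPM per kb, Gnaq 9.51 ± 2.20, Plcb4 8.33 ± 1.04, Prkca 6.29 ± 0.594 and Arrb1 6.21 ± 0.908. Arrb2 (0.744 ± 0.186) and Itpr2 (0.220 ± 0.119) closed the order. The vehicle mice of neighbours in this order did not overlap except for Gnaq with Plcb4 and Prkca with Arrb1. Among 13223 protein-coding genes tested, the percentile of the vehicle level was 96.9 for Prkcb, 88.5 for Plcb1, 13.5 for Arrb2 and 3.52 for Itpr2. The order of means in the 24 h, 48 h and 7 day groups had Prkcb, Plcb1 and Gna11 on top and Itpr2 last as well, although at each of these times Plcb1 and Gna11 overlapped.

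The G protein alpha subunits carry the signal from the receptor to phospholipase C. Gnaq (chr19:16132831-16387463, + strand, GRCm38) was at 50.6, 44.1, 72.3 and 68.3 CPM in vehicle mice, 83.2, 57.7, 51.1 and 75.5 at 24 h, 73.4, 74.0, 77.1 and 80.4 at 48 h, and 54.7, 75.3, 43.2 and 67.9 at 7 days. All 4 mice at 48 h were above all vehicle mice, the lowest (73.4) by less than the SD of 13.6 CPM between vehicle mice, and the other groups overlapped with vehicle. The log2 fold change was 0.37 at 48 h (SE 0.21, 95% interval -0.07 to 0.82, adjusted p = 0.184), 0.18 at 24 h (adjusted p = 0.546) and 0.03 at 7 days (adjusted p = 0.952). Gna11 (chr10:81528724-81545190, - strand) varied most at 24 h: it was at 106, 107, 104 and 86.0 CPM in vehicle mice, 45.1, 141, 140 and 97.5 at 24 h, 119, 99.6, 73.2 and 130 at 48 h and 122, 93.7, 99.5 and 80.0 at 7 days. Its mean stayed within 98.9 and 106 CPM in all groups, and all 3 log2 fold changes against vehicle lay between -0.03 and 0.07 with a 95% interval of -0.50 to 0.64 at 24 h. That interval is the range of differences these mice could not exclude.

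Phospholipase C beta is the enzyme that G alpha q activates. Plcb1 (chr2:134786067-135475258, + strand), its most abundant form here, was at 384, 369, 368 and 343 CPM in vehicle mice, 505, 267, 332 and 257 at 24 h, 292, 267, 350 and 270 at 48 h and 311, 350, 280 and 408 at 7 days. At 48 h 3 of 4 mice were below every vehicle mouse, and at 24 h 3 were below and 1 was above every vehicle mouse. The log2 fold change at 48 h was -0.31 (SE 0.20, 95% interval -0.73 to 0.11, adjusted p = 0.241). Plcb4 (chr2:135659011-136014593, + strand) lies on the same chromosome and strand as Plcb1 and beyond its end. It was at 62.8, 85.6, 76.0 and 74.5 CPM in vehicle mice, 137, 65.9, 84.4 and 75.3 at 24 h, 60.6, 83.7, 125 and 79.2 at 48 h and 75.1, 97.8, 58.4 and 106 at 7 days, and it overlapped with vehicle at each time. Its log2 fold changes were 0.28, 0.22 and 0.17 at 24 h, 48 h and 7 days, with adjusted p of 0.436, 0.528 and 0.757. Mouse 1 of the 24 h group was the highest of its group for Gnaq, Plcb1, Plcb4, Itpr2, Prkcb and Arrb2 and the lowest for Gna11, Itpr1 and Arrb1.

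The inositol trisphosphate receptors release calcium from the endoplasmic reticulum. Itpr1 (chr6:108213096-108551109, + strand), the main neuronal form, was at 239, 217, 244 and 251 CPM in vehicle mice, 320, 324, 340 and 336 at 24 h, 296, 277, 364 and 316 at 48 h and 228, 316, 191 and 364 at 7 days. Every mouse at 24 h and 48 h was above every vehicle mouse. The log2 fold change was 0.47 at 24 h (SE 0.18, 95% interval 0.09 to 0.85) and 0.40 at 48 h (95% interval 0.01 to 0.78), yet neither passed the threshold over all genes, with adjusted p of 0.0649 and 0.104. DESeq2 gave Itpr1 an adjusted p of 0.0347 at 24 h, and with the 18S share as a covariate its log2 fold change was -0.23 at 24 h and -0.35 at 48 h, a reversal of sign. At 7 days mice 2 and 4, which carried the high 18S share, had 316 and 364 CPM of Itpr1, and mice 1 and 3 had 228 and 191, within and below the vehicle range of 217 to 251. Itpr2 (chr6:146108299-146502223, - strand) was scarce, with 9 to 58 counts per mouse. It was at 2.17, 5.57, 3.64 and 1.65 CPM in vehicle mice, 4.72, 2.98, 1.39 and 3.43 at 24 h, 1.30, 1.51, 2.37 and 1.99 at 48 h and 4.23, 6.50, 5.84 and 3.64 at 7 days. The 7 day mice were all above the 48 h mice, a log2 difference of 1.48 (95% interval 0.49 to 2.48) with an adjusted p of 0.170.

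The conventional protein kinases C need calcium and diacylglycerol. Prkcb (chr7:122288751-122634402, + strand) was at 696, 659, 618 and 607 CPM in vehicle mice, 535, 372, 396 and 405 at 24 h, 442, 414, 520 and 434 at 48 h and 696, 527, 570 and 447 at 7 days. All 8 mice of the 24 h and 48 h groups were below all 4 vehicle mice, and at 7 days 3 of 4 were below them and 1 was level with the highest. The lowest at 7 days were mice 4 and 2 (447 and 527 CPM), which carried the high 18S share. The gene fell to 0.662 of vehicle at 24 h (95% interval 0.517 to 0.848), a log2 fold change of -0.60 (SE 0.17, adjusted p = 0.0187). At 48 h it fell to 0.702 of vehicle (95% interval 0.548 to 0.899), a log2 fold change of -0.51 (SE 0.17, adjusted p = 0.0309). At 7 days the log2 fold change was -0.20 (95% interval -0.56 to 0.15, adjusted p = 0.572). The 24 h call was lost, at adjusted p of 0.0501 to 0.0519, without vehicle mouse 1, 24 h mouse 2 or 24 h mouse 4, with log2 fold changes of -0.56, -0.54 and -0.58. The 48 h call was lost when any mouse except vehicle mouse 4 or 48 h mouse 3 was left out, with adjusted p of up to 0.0775 and log2 fold changes of -0.59 to -0.47 over the 8 fits. It was also lost with total counts only (adjusted p = 0.0574), no filter (0.0667), library 2 only (0.0511) and the mitochondrial covariate (0.391). Over 22 alternatives the 24 h call of Prkcb was kept in 18 and the 48 h call in 11. With the 18S share as a covariate, 75.1% of whose variance lay between groups, the log2 fold change was -0.20 at 24 h (adjusted p = 0.971) and -0.08 at 48 h (adjusted p = 0.998).

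Prkca (chr11:107933387-108343928, - strand), the other conventional kinase among the members, did not follow Prkcb. It was at 49.6, 56.7, 57.3 and 62.6 CPM in vehicle mice, 68.8, 56.8, 69.2 and 59.7 at 24 h, 81.3, 55.9, 61.7 and 69.4 at 48 h and 62.7, 71.3, 48.7 and 52.1 at 7 days, with overlap at each time. Its log2 fold changes were 0.17, 0.25 and 0.05 at 24 h, 48 h and 7 days, with adjusted p of 0.488, 0.285 and 0.897. Since these relatives differed, their promoters are shown, each as 300 bases from 250 before to 50 after the start that RefSeq gives (GRCm38.p6), in gene direction, with GC boxes (GGGCGG on either strand) in capitals. The Prkcb window is chr7:122288875-122289174 on the + strand, inside the first part of the Ensembl gene, and the Prkca window is chr11:108343839-108344138 on the - strand.
Prkcb: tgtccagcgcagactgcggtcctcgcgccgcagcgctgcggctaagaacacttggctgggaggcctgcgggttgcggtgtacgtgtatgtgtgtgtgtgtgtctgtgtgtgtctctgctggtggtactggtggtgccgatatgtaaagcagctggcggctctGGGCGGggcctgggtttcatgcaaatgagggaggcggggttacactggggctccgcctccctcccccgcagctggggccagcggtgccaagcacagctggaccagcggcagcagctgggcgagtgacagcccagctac
Prkca: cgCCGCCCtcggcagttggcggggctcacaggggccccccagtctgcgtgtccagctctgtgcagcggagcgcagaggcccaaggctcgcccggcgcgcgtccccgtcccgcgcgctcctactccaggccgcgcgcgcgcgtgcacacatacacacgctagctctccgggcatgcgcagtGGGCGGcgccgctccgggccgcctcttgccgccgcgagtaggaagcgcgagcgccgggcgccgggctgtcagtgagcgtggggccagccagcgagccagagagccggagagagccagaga
The Prkcb window had 65.3% G or C, 19 CpG dinucleotides and 1 GC box, and the Prkca window had 75.3%, 42 and 2. Over 32851 promoter windows of the same length the medians were 52.7% and 7 CpG, and 35.7% held a GC box. RefSeq windows were matched for 7 of the 10 members. Neither the cAMP response element TGACGTCA (in 1.79% of all windows) nor its first part TGACG (20.8%), nor the EGR1 motif GCGTGGGCG (0.612%) nor TATAAA (13.6%) was in any of them on either strand.

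**Figure D2:**
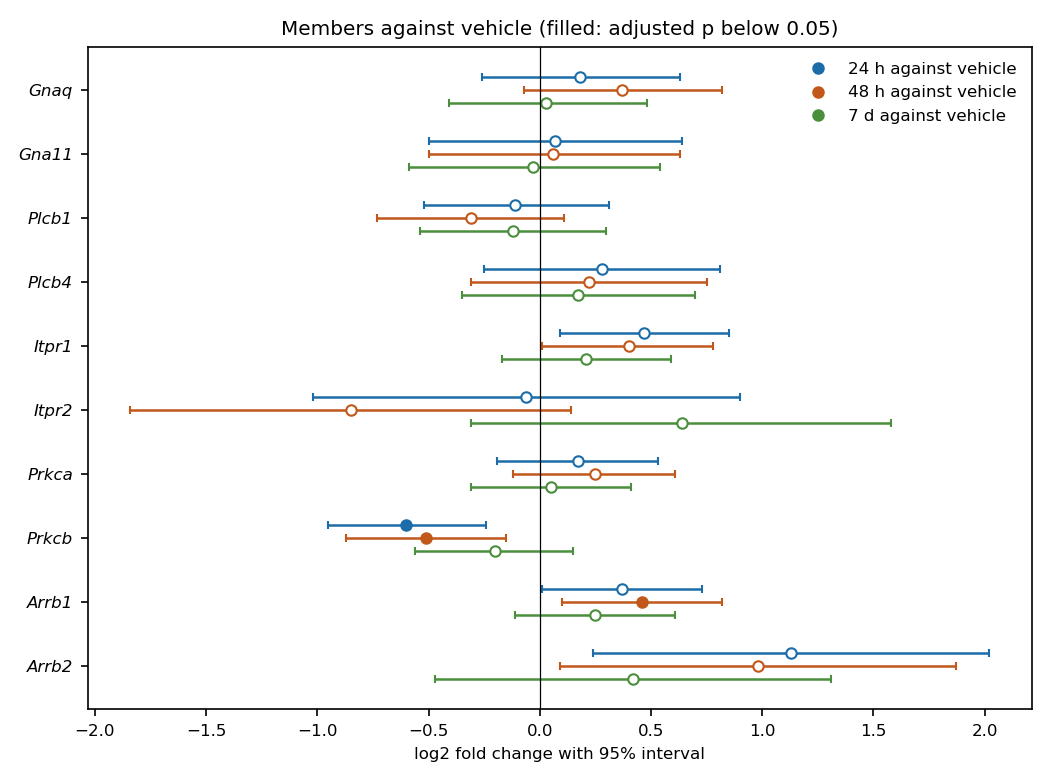
Log2 fold change against vehicle (horizontal axis) with 95% intervals for the 10 genes at 24 h, 48 h and 7 days, 4 mice a group, with filled points past an adjusted p of 0.05. The only filled points are Prkcb at 24 h (-0.60) and 48 h (-0.51) and Arrb1 at 48 h (0.46), and the widest intervals are those of the scarce Itpr2 and Arrb2.

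Beta-arrestins bind phosphorylated receptors. Arrb1 (chr7:99535466-99606771, + strand) was at 78.1, 78.2, 61.4 and 59.9 CPM in vehicle mice, 79.2, 106, 82.7 and 90.0 at 24 h, 104, 103, 78.6 and 98.3 at 48 h and 91.6, 94.8, 66.4 and 77.7 at 7 days. All mice at 24 h and 48 h were above all vehicle mice, although the lowest of each group (79.2 and 78.6 CPM) exceeded the highest vehicle mouse (78.2 CPM) by less than the SD of 10.1 CPM between vehicle mice. Arrb1 rose 1.38-fold at 48 h (95% interval 1.07 to 1.77), a log2 fold change of 0.46 (SE 0.17, adjusted p = 0.0482). At 24 h the log2 fold change was 0.37 (SE 0.17, adjusted p = 0.124) and at 7 days 0.25 (adjusted p = 0.479). The 48 h call was lost when any mouse except 48 h mouse 3 was left out, with log2 fold changes of 0.40 to 0.54 over the 8 fits and adjusted p of up to 0.130, and with the 18S share as a covariate (0.26, adjusted p = 0.996). It passed in 10 of 22 alternatives. Arrb2 (chr11:70432635-70440828, + strand) was scarce, with 15 to 53 counts per mouse. It was at 2.36, 1.71, 2.75 and 1.65 CPM in vehicle mice, 8.07, 2.98, 2.79 and 4.85 at 24 h, 4.78, 2.51, 4.00 and 5.45 at 48 h and 2.54, 3.03, 2.22 and 3.64 at 7 days. Its 24 h mice were above the vehicle mice, the lowest by less than the vehicle SD of 0.530 CPM, with a log2 fold change of 1.13 (SE 0.42, 95% interval 0.24 to 2.02, adjusted p = 0.0582). At 48 h the log2 fold change was 0.98 (95% interval 0.09 to 1.87, adjusted p = 0.0860). The 24 h value was 0.74 (adjusted p = 0.222) without 24 h mouse 1, the highest, and 1.31 (adjusted p = 0.0443) without 24 h mouse 3.

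Between the DOI times no member differed past the threshold in any of 30 comparisons. Of all genes, 0% passed for 48 h against 24 h, 0.00557% (1 gene) for 7 days against 24 h and 0% for 7 days against 48 h, and 0, 1 and 1 of the 10 members had an unadjusted p under 0.05, beside 1.88%, 14.2% and 16.5% of all genes, so these counts are no more than the background. The single members were Prkcb, higher at 7 days than at 24 h by a log2 difference of 0.39 (95% interval 0.04 to 0.75, adjusted p = 0.303), and Itpr2, above. A difference of Prkcb between 24 h and 48 h was 0.08 on the log2 scale (95% interval -0.27 to 0.44). An effect past the threshold at 24 h or 48 h and not at 7 days is therefore not shown to have changed between these times.

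Ratios of relatives within a mouse do not depend on library scaling and were read per kilobase of exon. The Prkca to Prkcb ratio was 0.0606, 0.0733, 0.0789 and 0.0877 in vehicle mice, 0.110, 0.130, 0.149 and 0.125 at 24 h, 0.156, 0.115, 0.101 and 0.136 at 48 h and 0.0766, 0.115, 0.0727 and 0.0991 at 7 days. It was thus higher in all 8 mice of the 24 h and 48 h groups than in any vehicle mouse, and at 7 days it overlapped with vehicle. The Plcb1 to Plcb4 ratio was 4.94, 3.48, 3.90 and 3.72 in vehicle mice and 2.97, 3.27, 3.17 and 2.76 at 24 h, lower in every mouse, and it overlapped at 48 h and 7 days. The Itpr1 to Itpr2 ratio was 31.5 to 123 in vehicle mice and 124 to 183 at 48 h, without overlap but with as few as 9 counts of Itpr2 behind it. Gnaq to Gna11 and Arrb1 to Arrb2 overlapped with vehicle at every time. These ratios carry no test.

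**Figure D3:**
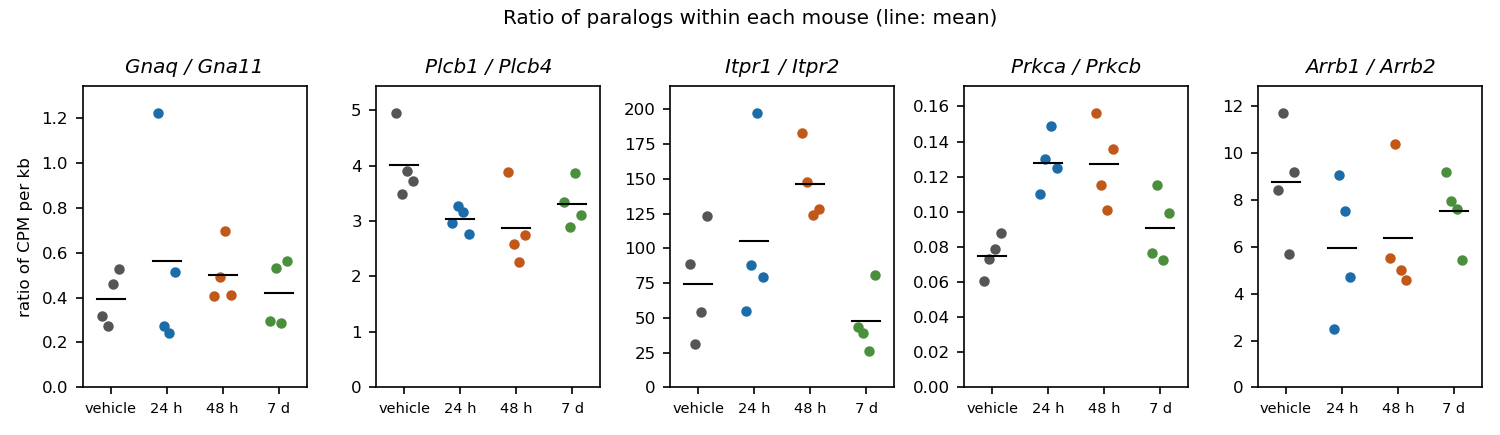
Ratio of CPM per kilobase of exon of 5 pairs of relatives (vertical axes, each from 0) in the 4 mice of each group, with the mean as a line. The Prkca to Prkcb ratio is 0.0877 or less in vehicle mice and 0.101 or more in the 24 h and 48 h mice.

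The protein-coding genes whose pattern was most like that of Prkcb over the 16 mice were Btbd10 and Zfp148, by the root-mean-square difference in log2 CPM after subtracting each gene's vehicle mean. This difference was 0.13 for Btbd10 and 0.14 for Zfp148, against a median of 0.66 over 13017 genes. These genes were chosen on the same 16 mice, so their values are a description only. Btbd10 was at 236 ± 9.83 CPM in vehicle mice and 170 ± 13.8 at 24 h (SD, n = 4). Zfp148 was at 85.7 ± 7.71 CPM in vehicle mice and 59.3 ± 13.0 at 24 h. For Arrb1 the closest were Neurl1a and Ppp2r5c, both at 0.15 against a median of 0.71. Neurl1a was at 38.2 ± 4.46 CPM in vehicle mice and 49.3 ± 6.84 at 48 h, groups that overlapped. Ppp2r5c, a regulatory subunit of protein phosphatase 2A, was at 94.8 ± 5.36 CPM in vehicle mice and 127 ± 4.93 at 48 h.

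Other annotated features lie within the span of these genes, most of them in introns, and have count rows of their own. On either strand there were 31, of which 3 share exonic bases with their member (Gm44101 and Gm44040 in Itpr1, Mir7115 in Arrb2), and 12 had enough counts to be tested, Gm44101 among them. Of these 12, 6 were higher at 24 h and 7 at 48 h and none was lower, with median log2 fold changes of 1.88 and 2.21, beside 24.2% and 30.1% of all genes called in either direction. At 7 days none passed, with a median of 1.59. Some of the 12 were scarce in vehicle mice, such as Gm10819, 4930545L23Rik and Gm44664 at means of 0.248, 0.648 and 0.642 CPM. These could pass the count filter only with the treated mice and could hardly be called lower. The lack of lower calls and the medians are therefore partly set by the filter. The most counted of the 12, Gm45191 (chr7:122313064-122318502), is a single block on the same strand as Prkcb that shares no exonic base with it. It was at 2.64, 4.78, 13.5 and 6.03 CPM in vehicle mice, 60.5, 30.4, 24.7 and 45.6 at 24 h, 29.4, 45.0, 71.4 and 21.3 at 48 h and 6.01, 62.2, 4.90 and 59.5 at 7 days. So its counts rose while those of its host's exons fell, by a log2 fold change of 2.58 at 24 h (adjusted p = 0.0147) and 2.63 at 48 h (adjusted p = 0.0108). At 7 days mice 2 and 4 were high and mice 1 and 3 within the vehicle range. The feature lies in an intron, so its reads cannot be told apart from those of unspliced Prkcb RNA. The same limit holds for the other features within introns, on either strand, since no strand option was recorded. Gm44664, also in Prkcb and on its strand, went from 0.642 CPM in vehicle mice to 10.0 at 24 h and 11.0 at 48 h.

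The most counted nested features of the other members were on the other strand where they could be tested. Gm11655 in Prkca rose by 2.34 at 24 h and 2.54 at 48 h on the log2 scale (adjusted p = 0.0234 and 0.0136). Gm10819 in Gnaq rose by 2.94 and 2.73 (adjusted p = 0.0175 and 0.0208), from 0.248 CPM in vehicle mice. That level is under their floor of 3 counts (0.283 to 0.341 CPM), so the size of the rise is uncertain. In Plcb1, 4930545L23Rik rose at 48 h by 2.26 (adjusted p = 0.0322), with 1.87 at 24 h (adjusted p = 0.0778). Gm44101 in Itpr1 rose by 1.72 and 1.67 (adjusted p = 0.0390 and 0.0369), from 2.58 to 8.50 CPM at 24 h. It overlaps 181 exonic bases of Itpr1 on the other strand, and no strand option was recorded, so reads of the Itpr1 gene and of this feature cannot be told apart there. Exonic bases shared with any other annotated gene made up 1.58% of Itpr1, 1.60% of Plcb1, 2.25% of Arrb2, 0.334% of Prkca and 0% of the other 6 members.

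**Figure D4:**
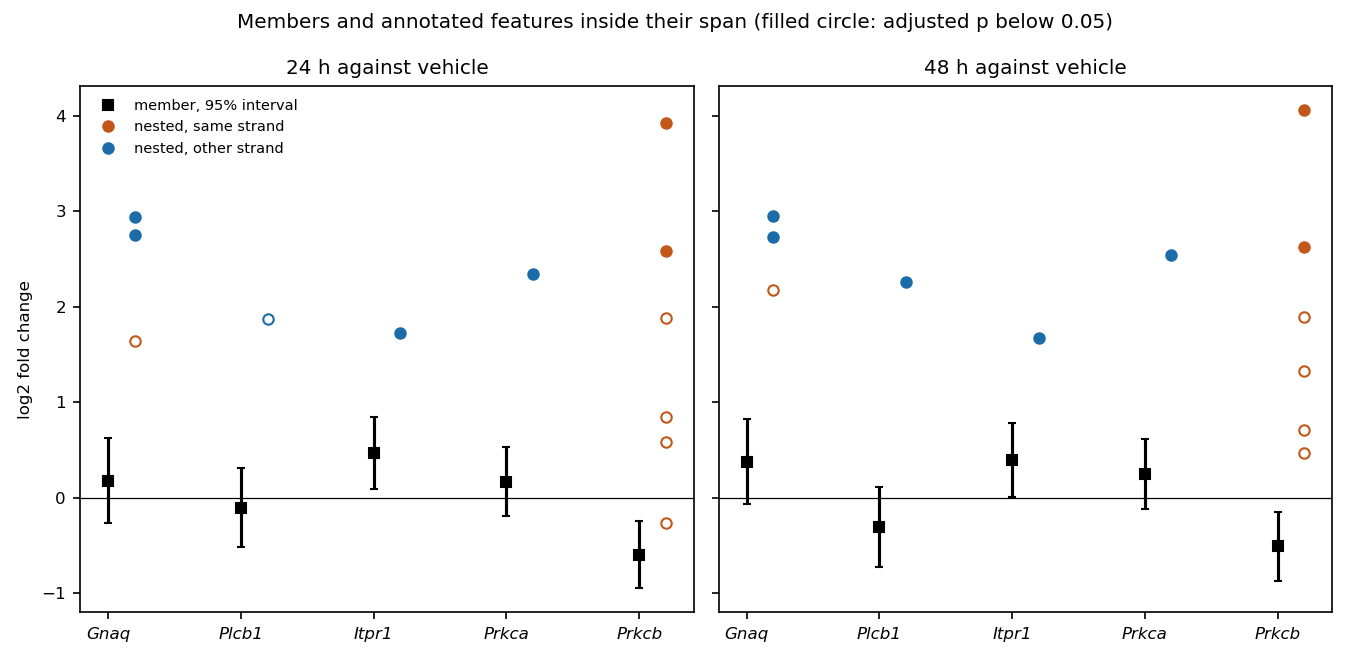
Log2 fold change against vehicle (vertical axis) at 24 h and 48 h of 5 members (squares with 95% intervals) and of the 12 tested features inside them (circles, filled past an adjusted p of 0.05). The circles lie above their host at every locus, with 6 filled at 24 h and 7 at 48 h, all above 0. For features scarce in vehicle mice the count filter favours this direction.

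The rest of the pathway was read from 12 lists of 159 other genes, of which 152 were tested. At 24 h 28 were higher and 14 lower (27.6% called), at 48 h 32 were higher and 19 lower (33.6%), and at 7 days 0 passed, shares close to the background of 24.2%, 30.1% and 0%. The count at 24 h was 26 without vehicle mouse 2, 28 without vehicle mouse 1 or 24 h mouse 4, and 34 at 48 h without 48 h mouse 2. At 7 days it was 16 without 7 day mouse 1 and 13 without 7 day mouse 3, the 7 day mice with the low 18S share. With the 18S share as a covariate it was 0 at both 24 h and 48 h. The median log2 fold change of the lists together was 0.02 at 24 h and 0.02 at 48 h, against 0.03 and 0.02 over all genes.

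Among Gq-coupled receptors, 11 were tested, 3 rose and 1 fell at 24 h, and 6 rose and 1 fell at 48 h. The one that fell was Htr2a, which encodes the serotonin 2A receptor, at 122, 143, 122 and 141 CPM in vehicle mice, 41.4, 55.7, 93.3 and 55.3 at 24 h, 102, 46.2, 75.7 and 79.9 at 48 h and 127, 102, 91.2 and 97.7 at 7 days. All mice at 24 h and 48 h were below the vehicle mice, with log2 fold changes of -1.10 (SE 0.24, adjusted p = 0.00536) and -0.79 (SE 0.24, adjusted p = 0.0200), and at 7 days it was -0.33 (adjusted p = 0.503). DOI also activates the related serotonin 2B and 2C receptors. Htr2b rose at 24 h by 2.11 on the log2 scale (adjusted p = 0.0301) and rose at 48 h too (adjusted p = 0.0141), and Htr2c rose at 48 h by 1.32 (adjusted p = 0.0355). Chrm1, the M1 muscarinic acetylcholine receptor, rose from 64.8 ± 7.60 CPM in vehicle mice to 344 ± 142 at 24 h and 355 ± 101 at 48 h (SD, n = 4), with adjusted p of 0.00219 and 0.00162. At 7 days it was at 88.3, 354, 81.0 and 263 CPM, high in mice 2 and 4.

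**Figure D5:**
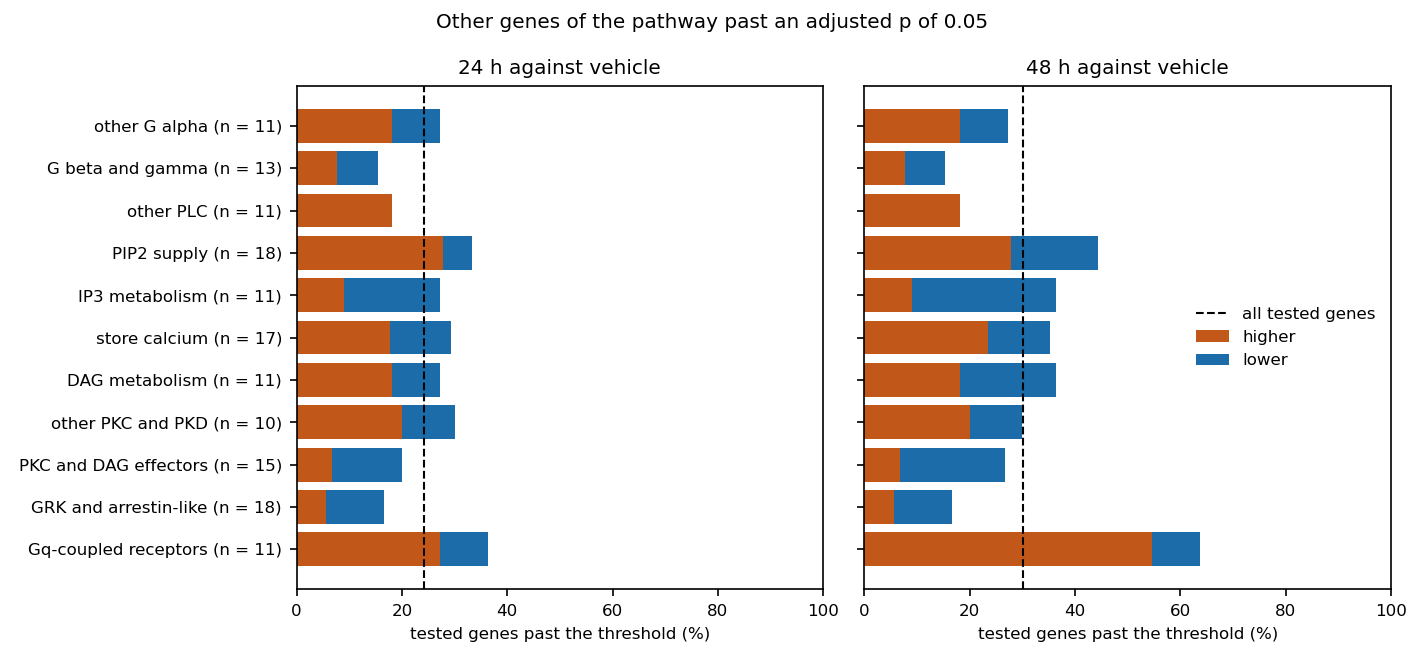
Share of tested genes (horizontal axis, percent) past an adjusted p of 0.05 in 11 lists of other pathway genes at 24 h and 48 h, split into higher and lower, with the share over all genes tested (24.2% and 30.1%) as a dashed line. The lists drawn lie between 15.4% and 63.6%.

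Among the other G alpha genes, 2 of 11 rose and 1 fell at each of 24 h and 48 h. Gnao1, the abundant neuronal Go subunit, rose from 44.4 ± 4.96 CPM to 109 ± 7.67 at 24 h and 118 ± 10.0 at 48 h (adjusted p = 0.00308 and 0.00173). Gnai3, a Gi subunit, was at 40.6 ± 4.63 CPM in vehicle mice and fell to 20.7 ± 9.10 at 48 h (adjusted p = 0.0163). Of 13 beta and gamma subunits 1 rose and 1 fell at both times: Gng3 by 0.67 and 0.70 upward, and Gng12 with log2 fold changes of -1.30 and -1.18. Of 11 other phospholipases C 2 rose and none fell. These were Plch2, by 1.21 at 24 h and 1.15 at 48 h (adjusted p = 0.00257 and 0.00200), and Plcg1, the form that receptor tyrosine kinases activate, by 0.61 and 0.54.

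The lists on phosphoinositide supply and inositol phosphates moved in both directions. In the supply list of 18 genes 5 rose and 1 fell at 24 h, and 5 rose and 3 fell at 48 h. Pitpnm2, a phosphatidylinositol transfer protein, rose from 18.2 ± 3.15 to 70.8 ± 15.2 CPM at 24 h (log2 fold change 1.96, adjusted p = 0.00176), and Pitpnm1 by 0.79 (adjusted p = 0.00652). Of 11 genes of inositol phosphate metabolism 1 rose and 2 fell at 24 h, and 1 rose and 3 fell at 48 h. The gene that rose was Inpp4a, a phosphatase of inositol lipids, from 90.6 ± 5.35 to 581 ± 125 CPM at 24 h, by 2.68 (adjusted p = 0.00176), and at 7 days it was at 92.8, 485, 93.5 and 485 CPM. Itpka, the kinase that turns inositol trisphosphate into the tetrakisphosphate, fell from 198 ± 49.7 to 68.0 ± 10.4 CPM at 24 h and 66.6 ± 10.4 at 48 h (adjusted p = 0.00368 and 0.00258). At 7 days it was at 223, 74.7, 175 and 67.2 CPM, low in mice 2 and 4.

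Calcium store genes numbered 17 tested, of which 3 rose and 2 fell at 24 h and 4 rose and 2 fell at 48 h. Ryr2, a ryanodine receptor that releases stored calcium, rose from 212 ± 8.69 to 434 ± 71.9 CPM at 24 h (log2 fold change 1.03, adjusted p = 0.0102). Of 11 genes of diacylglycerol metabolism 2 rose and 1 fell at 24 h, and 2 rose and 2 fell at 48 h. Those that fell were Daglb, which like Dagla cleaves diacylglycerol, with log2 fold changes of -0.90 and -0.87 (adjusted p = 0.0417 and 0.0402), and at 48 h the diacylglycerol kinase Dgka, with -0.76 (adjusted p = 0.0463). Dagla, which turns diacylglycerol into an endocannabinoid, had the largest fold change among the pathway genes named here: it was at 12.7, 11.0, 13.1 and 10.6 CPM in vehicle mice, 197, 227, 219 and 232 at 24 h, 213, 169, 230 and 231 at 48 h and 8.30, 208, 8.52 and 161 at 7 days. The groups at 24 h and 48 h were far from vehicle (log2 fold changes 4.20 and 4.15, adjusted p = 0.00247 and 0.00182), and the 7 day mice were split, with mice 2 and 4 high. Dgkz, a diacylglycerol kinase, rose by 1.31 and 1.38.

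Among the other protein kinases C and D, 2 of 10 rose at both times, and 1 fell at each time. Prkce, a calcium-independent form, rose from 25.0 ± 2.56 to 51.7 ± 8.13 CPM at 24 h (log2 fold change 1.05, adjusted p = 0.00579), and Prkd3 rose by 1.34 (adjusted p = 0.0124). Of 15 targets of these kinases or other diacylglycerol-binding proteins 1 rose and 2 fell at 24 h, and 1 rose and 3 fell at 48 h. Unc13a and Unc13c, which prime synaptic vesicles, went in opposite directions, by 1.70 for Unc13a (adjusted p = 0.00190) and -1.95 for Unc13c (adjusted p = 0.00153). Among 18 receptor kinases, arrestin-like and endocytic genes 1 rose and 2 fell at both times. Grk2, a kinase that marks active receptors for arrestin, rose from 10.2 ± 2.26 to 41.0 ± 5.86 CPM at 24 h and 39.7 ± 9.63 at 48 h (adjusted p = 0.00153 at both), and Arrdc4, an alpha-arrestin, fell from 30.8 ± 2.69 to 11.4 ± 3.33 CPM at 24 h (adjusted p = 0.00582). Mice 2 and 4 also stood apart from mice 1 and 3 at 7 days for Grk2 (14.3, 30.4, 12.0 and 28.7 CPM). The same was seen for Gnao1 (58.5, 103, 37.1 and 104 CPM) and Ryr2 (186, 399, 174 and 420 CPM). Unc13c (12.4, 12.9, 15.1 and 7.42 CPM) and Dgkz (29.3, 42.0, 44.6 and 53.4 CPM) did not split this way.

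Nothing in the labels says whether the mice of a group were handled on separate days, so the p-values measure the spread between these mice. The larger depth and the lower 18S share of all vehicle mice than of the 24 h and 48 h mice cannot be told apart from treatment in this design. Mitochondrial genes took 0.0171% to 0.0701% of the counts in vehicle mice, 0.0621% to 0.101% in the 24 h mice and 0.108% to 0.268% in the 48 h mice, and 56.9% of the variance of this share lay between groups. With this share as a covariate, 0 members and 0 of the pathway genes passed at 48 h in edgeR, while 2 and 27 had an unadjusted p under 0.05. The log2 fold changes at 48 h were then -0.50 for Prkcb and 0.61 for Arrb1, beside -0.51 and 0.46 without it. Itpr1 went from 0.40 to -0.07.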

How the data were processed

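The deposited values are raw counts of reads per gene, which the authors made with featureCounts 2.0.0, per the file headers, over exons of Ensembl genes on GRCm38, with no option recorded for strand, pairs, multi-mapping or overlap. The submitters' processing notes also list Trim Galore 0.6.5, Bowtie2 2.4.1 and DESeq2 1.30.0, with no roles. Libraries used SMART-seq2 and Nextera XT chemistry, per the labels' protocols, so reads carry no molecular identifiers. Headers of 3 mice (24 h mouse 1, 48 h mouse 2, 7 days mouse 2) carry the number 6, but mice are numbered here by their labels.

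The 2 libraries of a mouse were summed, since their counts differed by more than sampling noise but they share an animal. Library totals were 2763704 to 7436451. All genes were fitted together over the 4 groups with edgeR 4.0.16 (filterByExpr, TMM, glmQLFit, glmQLFTest; R 4.3.3), with Benjamini-Hochberg adjustment over 17941 genes and a threshold of 0.05, and intervals are at 95%. Of the gene IDs 99.5% matched a symbol. CPM are TMM-scaled, and log2 CPM used a prior count of 2. A shared mouse number does not mean a shared animal: after removal of group means, mice with the same number had a mean correlation of -0.036 over 24 pairs (-0.282 to 0.244), so no block was used.

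The members and the lists were chosen with earlier results of these data known. By rule, the text names the members, Htr2a, the 2 genes of each pathway list with the smallest 4-group p and the 2 genes most like each called member. It also names each member's most counted nested feature where that feature was tested. Htr2b, Htr2c, Gm44664, Gm44040, Mir7115, Daglb, Dgka and the marker genes were named after their values were seen. One pathway list, in which a larger share of genes was called than in any list drawn, and 1 further gene are not reported here, although the counts over the 12 lists include them. Alternatives were DESeq2 1.42.0, limma 3.58.1 voom, other scaling, filters, thresholds and library choices, thinned counts, a mouse-number block, 2 covariates and each mouse left out. Promoter windows come from RefSeq (GRCm38.p6).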

Additional observations from a re-analysis of the deposited data

Results flagged for a closer look

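Gna11 in vehicle mouse 4 was at 86.0 CPM, while the nearest of the other 3 vehicle mice was at 104 CPM, a gap that is large against the range of the group. This was the only such mouse in 40 groups of 4 (10 members in 4 groups), where about 2 would be marked by chance. Leaving this mouse out changed no call of Gna11, whose log2 fold changes with each mouse left out ranged over -0.10 to 0.33 (24 h), -0.07 to 0.20 (48 h) and -0.15 to 0.06 (7 days).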

How the results depend on the processing

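Of the alternative values of the members' log2 fold changes, 1187 kept their direction and their side of the threshold, 16 newly passed it, 27 no longer passed it and 90 changed sign. At 48 h with the mitochondrial covariate the log2 fold changes were -0.50 for Prkcb (adjusted p = 0.391) and 0.61 for Arrb1 (adjusted p = 0.268) beside -0.51 and 0.46 in the report, and with the 18S covariate -0.08 and 0.26. The signs of the called values (Prkcb at 24 h and 48 h, Arrb1 at 48 h) did not change in any fit. Where a setting moved a value, the cause was not tested.

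Members called at 24 h numbered 1, and 3 with total counts only, DESeq2, voom with quality weights, 32 libraries with a correlation per mouse or a threshold of 0.1, 2 with library 2 only or only the groups compared, 0 with the 18S covariate or a threshold of 0.01, and 0 to 2 with a mouse left out. At 48 h the 2 calls became 4 with voom, and 3 with 32 libraries, only the groups compared or a threshold of 0.1. They became 1 with total counts only or the stricter filter, 0 with no filter, library 2 only, either covariate or a threshold of 0.01, and 0 to 2 with a mouse left out. For 7 days against 24 h the 0 calls became 1 with 32 libraries. In the 4-group test the 1 call became 3 with voom, 2 with 32 libraries, 0 with RLE factors, total counts only, no filter, either library alone, thinned counts, either covariate or a threshold of 0.01, and 0 to 1 with a mouse left out. With the mouse number as a replicate block the 4-group count was 0, and the pathway counts were 32 at 24 h and 45 at 48 h; these numbers do not pair animals.

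The 42 pathway genes called at 24 h became 69 with voom, 59 with only the groups compared, 54 at a threshold of 0.1 and 50 with 32 libraries. They became 26 with the mitochondrial covariate, 20 at a threshold of 0.01, 0 with the 18S covariate and 26 to 38 with a mouse left out. The 51 at 48 h became 72 with voom, 69 with only the groups compared, 67 at 0.1, 65 with DESeq2 and 60 with 32 libraries. They became 0 with either covariate, 20 at 0.01 and 34 to 48 with a mouse left out. The 0 at 7 days became 10 with no filter, 11 with DESeq2, 4 with 32 libraries or a threshold of 0.1, and 0 to 16 with a mouse left out. Under total counts only, the median over all genes tested went from 0.032 to 0.14 at 24 h and from 0.022 to 0.12 at 48 h, and the share of higher calls from 57.0% to 67.3% and from 55.8% to 64.2%.

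These log2 fold changes of members, none past the threshold, changed sign. With the 18S covariate they were Gnaq -0.25, Plcb4 -0.066 and Itpr1 -0.23 at 24 h, Gnaq -0.093, Plcb4 -0.16 and Itpr1 -0.35 at 48 h, Gnaq -0.18, Gna11 0.0041, Plcb4 -0.0035, Itpr1 -0.13 and Prkca -0.017 at 7 days, Gnaq 0.072, Plcb1 0.063, Plcb4 0.063, Itpr1 0.095 and Arrb1 0.0019 for 7 days against 24 h, Plcb4 0.15 and Itpr1 0.21 for 7 days against 48 h. With the mitochondrial covariate they were Gnaq -0.0027, Plcb4 -0.47 and Itpr1 -0.065 at 48 h, Gnaq -0.079, Gna11 0.045 and Plcb4 -0.032 at 7 days, Gnaq -0.066 and Gna11 0.19 for 48 h against 24 h, Plcb1 0.0077 for 7 days against 24 h, Plcb4 0.44 and Itpr1 0.13 for 7 days against 48 h. With 32 libraries they were Gna11 -0.027 and Itpr2 0.16 at 24 h, Gna11 0.083 for 48 h against 24 h, Gna11 0.010 and Plcb1 0.011 for 7 days against 24 h. With library 1 only they were Gnaq -0.018 and Gna11 0.017 at 7 days, Gnaq -0.0015 and Gna11 0.11 for 48 h against 24 h, Itpr2 0.13 at 24 h. With library 2 only they were Prkca -0.0038 for 48 h against 24 h. With no filter they were Plcb1 0.014 for 7 days against 24 h. With only the groups compared they were Gna11 0.0027 at 7 days. With the replicate block they were Gna11 0.024 for 48 h against 24 h, Plcb1 0.022 for 7 days against 24 h, Itpr2 0.045 at 24 h. With thinned counts they were Gna11 0.016 at 7 days. With total counts only they were Gna11 0.020 at 7 days, Itpr2 0.044 at 24 h. With voom they were Gnaq -0.043 at 24 h, Gnaq -0.088 at 7 days, Plcb1 0.15 and Plcb4 0.067 for 7 days against 24 h, Plcb4 0.21 and Arrb2 0.21 for 48 h against 24 h. With each mouse left out the range at 7 days was Gnaq -0.095 to 0.17, Gna11 -0.15 to 0.060 and Prkca -0.057 to 0.14. With each mouse left out the range at 24 h was Gna11 -0.099 to 0.33 and Itpr2 -0.32 to 0.31. With each mouse left out the range at 48 h was Gna11 -0.069 to 0.20 and Plcb4 -0.0085 to 0.34. With each mouse left out the range for 48 h against 24 h was Gna11 -0.26 to 0.17, Plcb1 -0.33 to 0.045, Plcb4 -0.28 to 0.21, Prkca -0.030 to 0.15 and Arrb2 -0.33 to 0.25. With each mouse left out the range for 7 days against 24 h was Gna11 -0.35 to 0.070, Plcb1 -0.12 to 0.24 and Plcb4 -0.23 to 0.17. With each mouse left out the range for 7 days against 48 h was Gna11 -0.23 to 0.034 and Plcb4 -0.18 to 0.18.

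The scarce Itpr2 and Arrb2 had 9 to 58 and 15 to 53 counts per mouse, which limits the precision of their values.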
